A study of Mus musculus with 6 samples.

Results

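The epidermal growth factor (EGF) family was examined in cultured mouse pancreatic fibroblasts through 10 genes: the receptors Egfr, Erbb2 and Erbb3, the EGF receptor ligands Tgfa, Hbegf, Ereg, Btc and Areg, the neuregulin gene Nrg1, and the feedback inhibitor Errfi1. The genes were matched by symbol to the 14831 genes of the raw count table, and 9 of the 10 have a row there. Areg (amphiregulin) has no row by symbol or by identifier and was not analysed here. The 6 RNAseq libraries came from immortalized fibroblasts of mixed strain, with 3 libraries labelled WT and 3 labelled KO for Gli2 and Gli3 (Gli2-/-;Gli3-/-). Per the study's methods, fibroblast lines were derived from the adult pancreas of floxed mice. After immortalization the control cells received an adenovirus carrying GFP and a lentivirus carrying dsRed, and the cells to be deleted received the GFP adenovirus and one carrying Cre. Infected cells were sorted and screened for recombination by qPCR and western blot, which were not analysed here. All cells grew to confluence in medium with calf serum, in a separate well for each library, so the spread between replicates is that of wells and libraries, and how many independent lines stood behind a group is not given in the sources used here.

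EGF family ligands are made as membrane-anchored precursors, and metalloproteases of the ADAM family cut the active factor loose. Tgfa, Hbegf, Ereg, Btc and Areg bind the EGF receptor, and neuregulins bind Erbb3 and Erbb4. ErbB2 has no known ligand of its own and pairs with the other receptors, and ErbB3 has a weak kinase and signals through its partners. In the pancreas this receptor family is known for its role in the conversion of acinar cells to duct-like cells, and both epithelial and stromal cells can supply ligands.

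The receptor-binding EGF motif is what makes these genes a family, and it is shown for 4 of the ligands below as coding DNA, with the 6 cysteine codons in capitals. The stretches were read 5′ to 3′ from GENCODE M21 transcripts (GRCm38) and each is spliced from 2 exon pieces. The Tgfa stretch lies at chr6:86263200-86269960 on the plus strand, Ereg at chr5:91088496-91089111 on the plus strand, Btc at chr5:91362421-91366197 on the minus strand and Nrg1 at chr8:31837698-31849398 on the minus strand.
Tgfa: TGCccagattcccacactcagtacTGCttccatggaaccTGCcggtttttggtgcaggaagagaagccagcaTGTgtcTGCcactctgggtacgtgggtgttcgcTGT
Ereg: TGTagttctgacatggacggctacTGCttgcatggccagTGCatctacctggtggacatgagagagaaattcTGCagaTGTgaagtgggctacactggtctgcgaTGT
Btc: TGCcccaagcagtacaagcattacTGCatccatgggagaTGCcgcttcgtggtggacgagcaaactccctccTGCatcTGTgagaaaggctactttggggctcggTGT
Nrg1: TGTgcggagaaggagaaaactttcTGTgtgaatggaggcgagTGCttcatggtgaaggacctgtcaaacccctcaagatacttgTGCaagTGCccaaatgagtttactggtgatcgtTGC
In Tgfa, Ereg and Btc, 7, 4, 10, 1 and 8 codons separate the successive cysteines, and the same spacing was found in Hbegf and Areg. Nrg1 has 7, 5, 13, 1 and 8 codons between its cysteines, so that its motif spans 40 codons against 36 in the EGF receptor ligands. The gaps that differ are those of 4 and 10 codons. Nrg1 has 12 coding transcripts in the annotation that hold the motif in 2 different stretches, and the counts used here are summed over the whole gene, so that the neuregulin forms were not told apart.

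The libraries held 31728420 to 33905521 counts in the group labelled WT and 32781730 to 41035931 in the group labelled KO. The labels were checked with the targeted genes, which went against them. Gli2 averaged 27.1 CPM (the count scaled to the size of its library) under the WT label and 56.2 CPM under the KO label, with a log2 fold change of 1.05 and an adjusted p of 8.01e-10 in edgeR's quasi-likelihood test. Gli3 averaged 12.5 CPM and 40.8 CPM, with a log2 fold change of 1.71 and an adjusted p of 2.10e-11. Counts summed over a whole gene do not separate the exons removed by Cre from those left in place. Each direction given here rests on these labels. Of 11 fibroblast markers 9 were listed, led by Col1a1 at 16050 CPM, while Pdpn and Fap had no row and Thy1 had at most 19 counts in a library. The summed fibroblast markers were 44830 to 47250 CPM under the WT label and 36780 to 38530 CPM under the KO label. These markers did not move alike. Col1a1 averaged 15982 CPM under the WT label and 16113 CPM under the KO label, Dcn 2643 and 905 CPM, and Lum 11.7 and 0.240 CPM. At an adjusted p under 0.05 and 1.5-fold or more in edgeR, 5 of the listed fibroblast markers were lower under the KO label and 0 higher. Over all genes tested, 6.1% were lower and 11.6% higher by the same rule. Thy1 was not tested and went the other way, with 4, 1 and 0 counts under the WT label and 19, 15 and 9 under the KO label. The 4 listed mesothelial markers summed to 21.5 to 24.4 CPM against 267.0 to 267.4 CPM, and 5 of 9 epithelial markers to 14.5 to 15.5 CPM against 31.9 to 33.7 CPM, with no row for Epcam, Krt18, Krt19 or Cldn7. No endothelial marker of 5 was listed, nor the macrophage markers Ptprc, Adgre1 and Itgam or the Schwann cell marker Sox10, and the 3 listed macrophage markers summed to 39.5 to 45.6 CPM against 38.4 to 40.1 CPM, the 4 listed Schwann cell markers to 55.5 to 55.8 CPM against 41.6 to 42.4 CPM, and the 1 listed acinar marker, Cela1, to 7.36 to 8.84 CPM against 13.6 to 15.4 CPM.

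Egfr, Erbb2, Hbegf, Ereg, Btc and Nrg1 rose in the libraries labelled KO and Tgfa fell, with small changes in most. Erbb3 was also higher, but it passed the filter on low counts only through the libraries labelled KO and so had to differ. Errfi1 did not pass the test at an adjusted p of 0.0526. The test was edgeR's quasi-likelihood test with p adjusted over the 14289 genes tested, and a gene passed at an adjusted p under 0.05. By this rule 58.7% of all genes tested passed, made up of 29.9% that rose and 28.8% that fell. When a change of at least 1.5-fold was also required, 17.7% of genes were called (11.6% higher and 6.1% lower), and of the 9 members Erbb3 alone was called, with the limit just given. The median log2 fold change of the 9 members was 0.27, beside 0.0020 over all genes tested, and the median size of their change, regardless of sign, was 0.398 beside 0.219. Both medians count Erbb3. Without Erbb3, the middle of the signed values lies between Egfr at 0.17 and Ereg at 0.27. The middle of the sizes then lies between Ereg at 0.27 and Hbegf at 0.398. The libraries of the groups did not overlap in CPM for any of the 9, with 7 higher (Erbb3 among them) and 2 lower under the KO label, and this held for 64.2% of all genes tested (32.9% higher and 31.3% lower). In RNA from bulk cultures, a different number of cells of a type and a different amount of RNA per cell cannot be told apart.

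**Figure D1:**
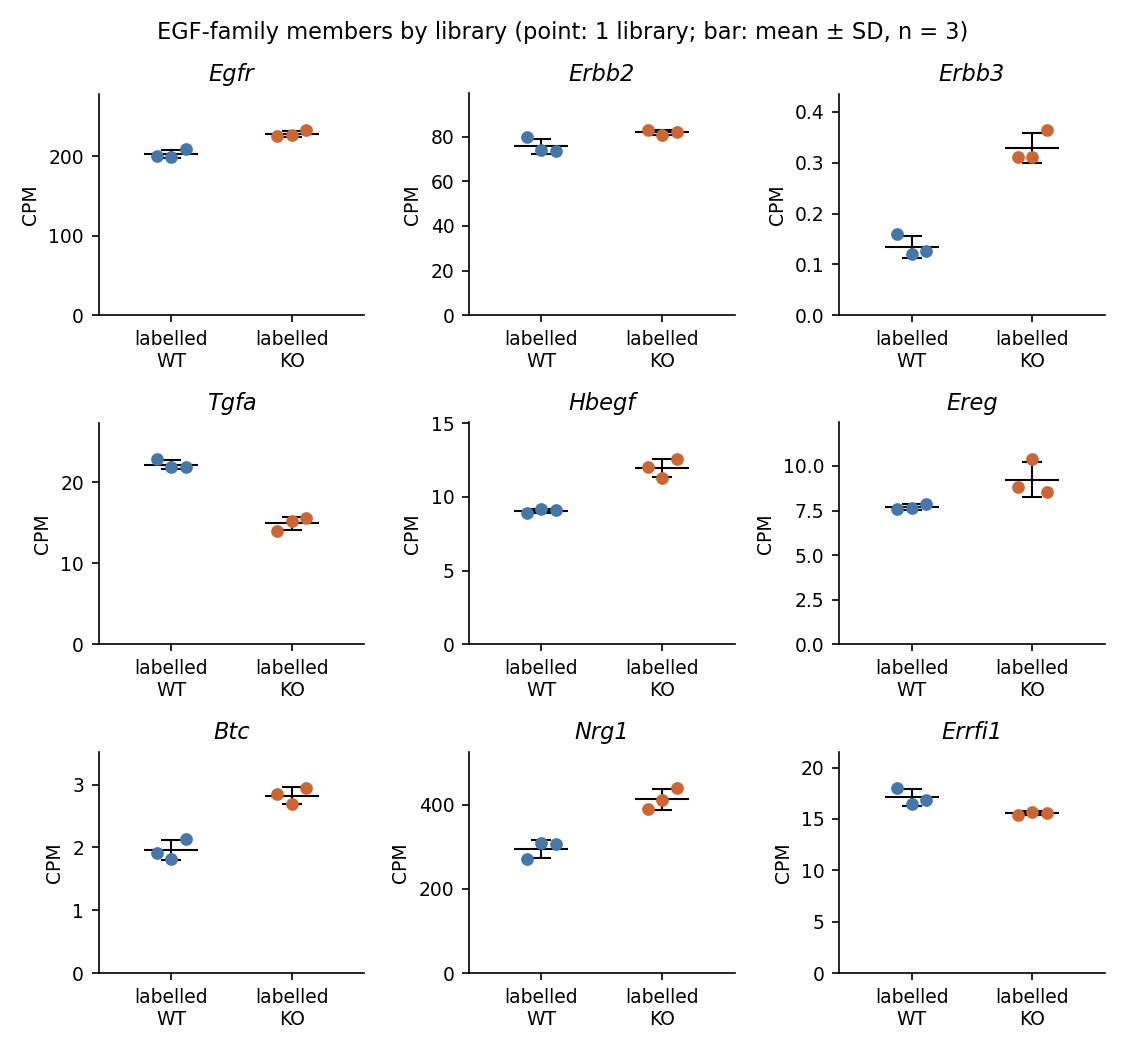
CPM of each of the 9 listed genes in each of the 6 libraries, with the group mean and SD (n = 3), one panel per gene with its own axis. The libraries labelled KO sit above those labelled WT for 7 genes and below them for Tgfa and Errfi1.

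Among the receptors, Egfr and Erbb2 were expressed at high levels and changed little between groups. Egfr, the receptor of the EGF ligands (chr11:16752203-16918158, plus strand), was at 200.9, 199.5 and 209.0 CPM under the WT label and at 225.6, 227.2 and 232.7 CPM under the KO label. Every library labelled KO was above every library labelled WT. Egfr rose 1.12-fold, with a log2 fold change of 0.17 (SE 0.0304) and an adjusted p of 3.79e-04 in edgeR, and 41.3% of genes tested changed by less. Erbb2, the partner receptor without a ligand of its own (chr11:98412470-98437716, plus strand), was at 79.7, 73.9 and 73.5 CPM against 82.8, 80.8 and 82.3 CPM. The highest library labelled WT came close to the lowest labelled KO. Erbb2 rose 1.08-fold (log2 fold change 0.11, SE 0.0375, edgeR adjusted p 0.0188), and the adjusted p was 0.0937 without labelled WT replicate 2, 0.0824 without labelled WT replicate 3 and 0.0641 without labelled KO replicate 1.

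Erbb3, a neuregulin receptor (chr10:128567523-128589652, minus strand), was close to the limit of detection. Under the WT label it had 5, 4 and 4 counts, and under the KO label 11, 13 and 12 counts, or 0.135 ± 0.0217 CPM and 0.329 ± 0.0302 CPM (SD, n = 3). For comparison, 3 counts correspond to between 0.0720 and 0.0957 CPM at these depths. The counts rose 2.40-fold, the largest fold among the 9 genes, with a log2 fold change of 1.26 (SE 0.37, 95% interval 0.46 to 2.06) and an edgeR adjusted p of 0.0104. DESeq2 gave an adjusted p of 0.0955, and Erbb3 was not tested when at least 10 counts in every library were required. Erbb3 is best known from epithelial, Schwann and neural crest cells, and the summed epithelial markers moved with it as given above, while the summed Schwann cell markers were lower in the libraries labelled KO. Their part in the result was not tested. Erbb4, the other neuregulin receptor, had no row and was not analysed here.

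The EGF receptor ligands moved in opposite directions. Tgfa, the transforming growth factor alpha gene (chr6:86195223-86275719, plus strand), was the one member that fell at an adjusted p under 0.05. It was at 22.8, 21.9 and 21.8 CPM under the WT label and at 14.04, 15.2 and 15.6 CPM under the KO label. The groups were far apart compared with the spread within them. The log2 fold change was -0.57 (SE 0.0559, 95% interval -0.69 to -0.45), a level 1.48-fold higher in the libraries labelled WT, with an edgeR adjusted p of 2.07e-06. This was just short of the 1.5-fold limit, and 80.4% of genes tested changed by less. Without labelled KO replicate 3 the log2 fold change was -0.60, past the limit.

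Hbegf, the heparin-binding EGF-like growth factor gene on chromosome 18, rose 1.32-fold. Its levels were 8.90, 9.17 and 9.12 CPM under the WT label and 12.1, 11.3 and 12.5 CPM under the KO label. No library labelled WT came near the lowest labelled KO. The log2 fold change was 0.40 (SE 0.0680, 95% interval 0.25 to 0.55), with an edgeR adjusted p of 2.57e-04.

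Ereg and Btc, which encode epiregulin and betacellulin, are neighbours of Areg on chromosome 5. Ereg (chr5:91074622-91093646, plus strand) was at 7.56, 7.64 and 7.86 CPM under the WT label and at 8.84, 10.4 and 8.51 CPM under the KO label. Replicate 2 of the group labelled KO was above the other libraries. Ereg rose 1.21-fold (log2 fold change 0.27, SE 0.0872, edgeR adjusted p 0.0171). Without labelled KO replicate 2 the log2 fold change was 0.17 with an adjusted p of 0.113, and without labelled WT replicate 2 the adjusted p was 0.0517. Btc (chr5:91357261-91402994, minus strand) was a low-level transcript, with 60, 61 and 68 counts under the WT label and 101, 112 and 97 counts under the KO label. In CPM these were 1.96 ± 0.158 and 2.83 ± 0.127 (SD, n = 3), and the groups did not overlap. Btc rose 1.44-fold, with a log2 fold change of 0.53 (SE 0.128, 95% interval 0.25 to 0.81) and an edgeR adjusted p of 0.00338. It went past the 1.5-fold limit without labelled WT replicate 3, where the log2 fold change was 0.59, and with upper-quartile factors, where it was 0.585.

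The annotation places Epgn (epigen, another EGF receptor ligand), Ereg, Areg and Btc in this order within chr5:91027464-91402994. Only Ereg and Btc of these 4 had a row. The listed genes on either side moved the other way from both: Mthfd2l, upstream of Epgn, had a log2 fold change of -0.33 (edgeR adjusted p 3.76e-04), and Parm1, beyond Btc, one of -0.32 (edgeR adjusted p 1.50e-05). Both flanking genes are the nearest listed protein-coding ones, and they were named after their values were seen. For listed genes farther upstream only raw counts are given, and a rise in them was not read as a change. Raw counts are not scaled to library size, which reached 41035931 counts under the KO label and 33905521 under the WT label. Cxcl1 had 525, 607 and 497 counts under the WT label and 727, 773 and 573 under the KO label. Cxcl15 had 469, 523 and 535 counts against 345, 380 and 327.

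**Figure D2:**
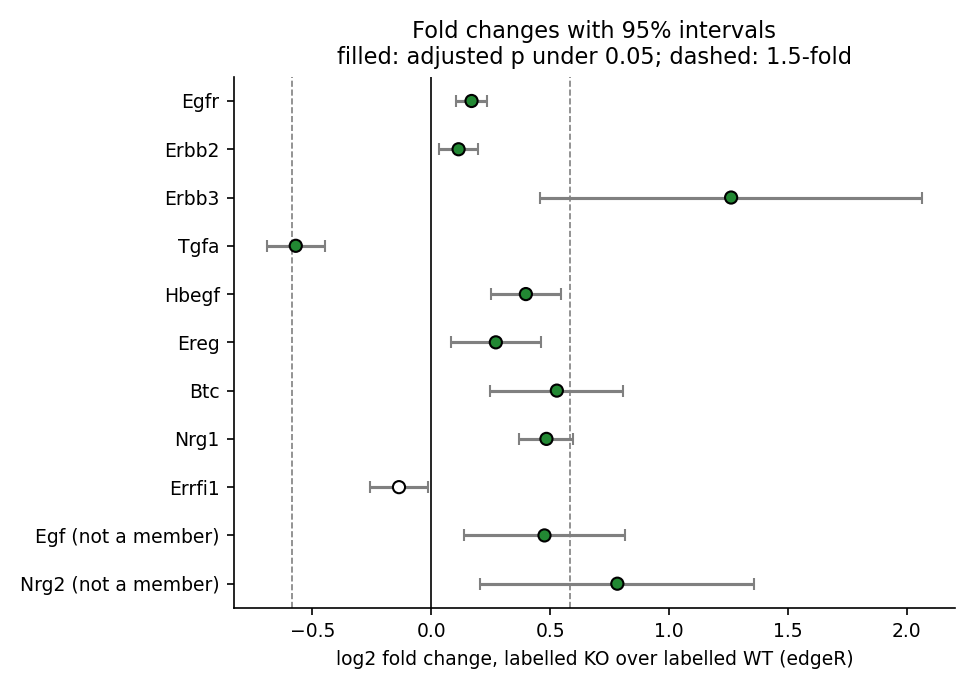
Log2 fold change, labelled KO minus labelled WT, of the 9 listed members with its 95% interval from edgeR (n = 3 a group). Egf and Nrg2 are also drawn and are marked as not members. Erbb3 has the widest interval, Tgfa is the lowest at -0.57, and no interval reaches 0, although Errfi1 did not pass after adjustment.

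Nrg1, the neuregulin gene, was the most abundant member and rose 1.40-fold. It lies at chr8:31814551-32884029 on the minus strand and was at 270.5, 308.6 and 306.0 CPM under the WT label and at 389.0, 411.3 and 438.3 CPM under the KO label. The lowest library labelled KO was well above the highest labelled WT. The log2 fold change was 0.48 (SE 0.0521, 95% interval 0.37 to 0.60), with an edgeR adjusted p of 4.89e-06, and 76.8% of genes tested changed by less. Nrg1 changed by less than the 1.5-fold limit in all 15 fits, the first one included, and its adjusted p was at most 4.90e-05 in any of them.

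Errfi1 (also called Mig6) encodes an inhibitor that binds active receptors of this family and is itself induced by their signalling. It lies at chr4:150853919-150868892 on the plus strand and was at 17.96, 16.4 and 16.9 CPM under the WT label and at 15.3, 15.7 and 15.6 CPM under the KO label. The groups did not overlap, but they were closer than for Tgfa. The log2 fold change was -0.14 (SE 0.0558, 95% interval -0.26 to -0.015), with an edgeR adjusted p of 0.0526. The adjusted p ranged from 0.0447 without labelled WT replicate 2 to 0.248 with upper-quartile factors. Errfi1 passed in 3 of the 14 alternatives, the other two being no filter on low counts (0.0496) and limma on the log2 values (0.0493), and it did not pass in the rest, among them DESeq2 (0.156) and the fit without labelled WT replicate 1 (0.168).

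**Figure D3:**
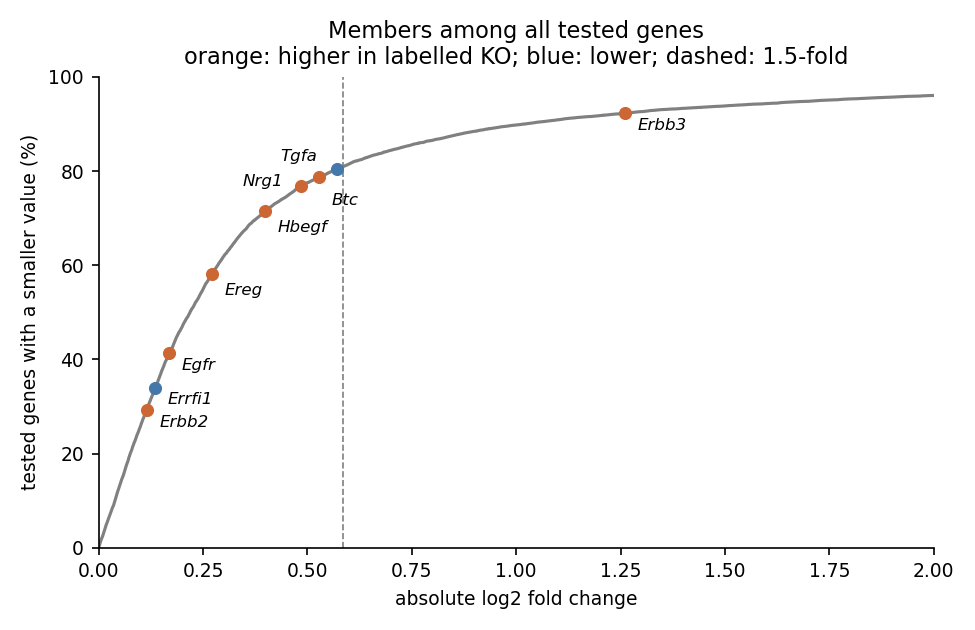
Share of all 14289 tested genes (y axis, percent) whose absolute log2 fold change (x axis) was smaller, with the 9 members marked on the curve and the 1.5-fold limit dashed. Erbb3 alone lies beyond the limit, Tgfa just before it, and Erbb2, Errfi1 and Egfr lie on the lower part of the curve.

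To compare levels between genes, CPM were divided by the exon length of each gene in the annotation, in kilobases. On this scale Nrg1 was highest at 28.5 ± 2.06 CPM per kilobase in the libraries labelled WT (SD, n = 3), followed by Egfr at 17.9 ± 0.452 and Erbb2 at 14.5 ± 0.664. Next came Errfi1 at 4.77 ± 0.221 and Tgfa at 3.42 ± 0.0839 CPM per kilobase. Hbegf at 1.87 ± 0.0289 and Ereg at 1.86 ± 0.0376 CPM per kilobase overlapped between libraries and did not differ beyond their spread. Btc at 0.433 ± 0.0350 and Erbb3 at 0.0224 ± 0.00360 CPM per kilobase were lowest. The fibroblasts thus carried transcripts of both Egfr and Erbb2 at levels several times those of the EGF receptor ligands, and Erbb3 far below either.

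In the libraries labelled KO the upper part of this order was the same. Nrg1 was at 39.9 ± 2.38 CPM per kilobase, Egfr at 20.2 ± 0.328, Erbb2 at 15.7 ± 0.204 and Errfi1 at 4.34 ± 0.0520. The ratio of Nrg1 to Egfr was 1.59 in the libraries labelled WT and 1.98 in those labelled KO. It depends on the length used, and with the longest transcript it was 2.74 and 3.41. Hbegf at 2.48 ± 0.129, Tgfa at 2.30 ± 0.126 and Ereg at 2.24 ± 0.240 CPM per kilobase followed, and each of these neighbours overlapped with the next. Tgfa was thus clearly above Hbegf in the libraries labelled WT and level with it in those labelled KO. With the length of the longest transcript in place of the total exon length, all 9 genes had the same rank in the libraries labelled WT, Hbegf and Ereg no longer overlapped, and under the KO label Hbegf was 1.25 times Tgfa with no overlap.

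**Figure D4:**
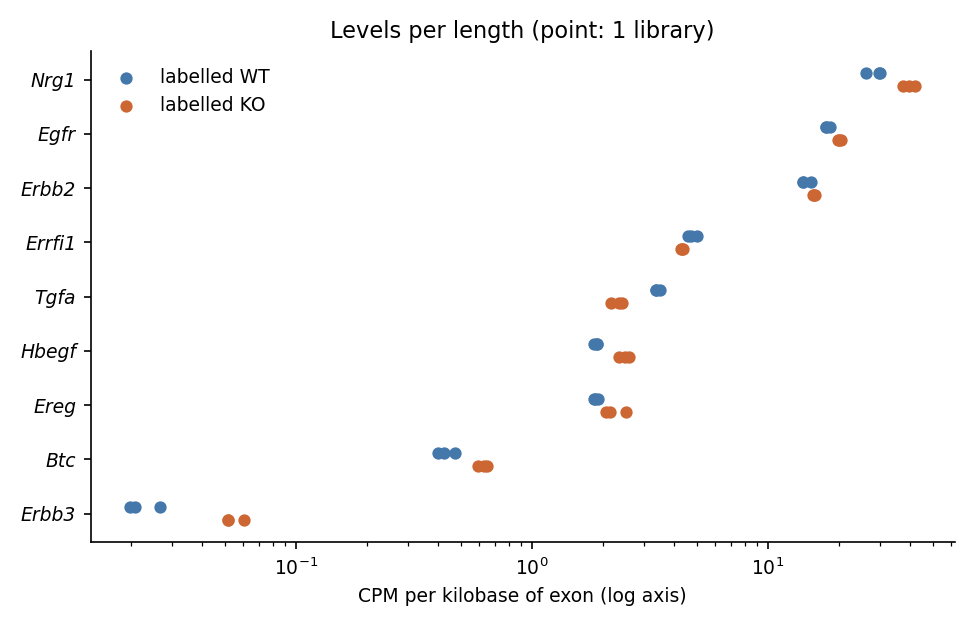
Level of each listed member in CPM per kilobase of exon (log axis), with one point for each library (3 a group). Nrg1, Egfr and Erbb2 lie highest in both groups, Tgfa moves from above Hbegf in the libraries labelled WT to beside it in those labelled KO, and Erbb3 lies lowest.

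The 4 EGF receptor ligands among the listed members were also added up, without Egf, which was at 0.212 and 0.293 CPM per kilobase under the WT and KO labels. Tgfa, Hbegf, Ereg and Btc summed to 7.59 ± 0.0535 CPM per kilobase in the libraries labelled WT (range 7.53 to 7.63) and to 7.64 ± 0.187 in those labelled KO (range 7.43 to 7.78). The ranges overlapped, so no difference in the sum was detected beyond the spread. The make-up of the sum was different. Tgfa was 45.1% ± 1.04 of it in the libraries labelled WT and 30.1% ± 1.06 in those labelled KO (SD, n = 3), with ranges of 44.1% to 46.2% and 29.1% to 31.2%. Hbegf was 24.7% and 32.4%, Ereg 24.5% and 29.3%, and Btc 5.70% and 8.19%. With the longest transcript as length, the sum was 10.4 CPM per kilobase in both groups and Tgfa was 47.2% and 31.8% of it. These shares follow from the 4 fold changes above and were not tested on their own. Nrg1 was 78.9% ± 1.30 of the sum of these 4 ligands and itself in the libraries labelled WT and 83.9% ± 0.598 in those labelled KO. This share of Nrg1 was computed with the total exon length only, and it depends on the length used.

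**Figure D5:**
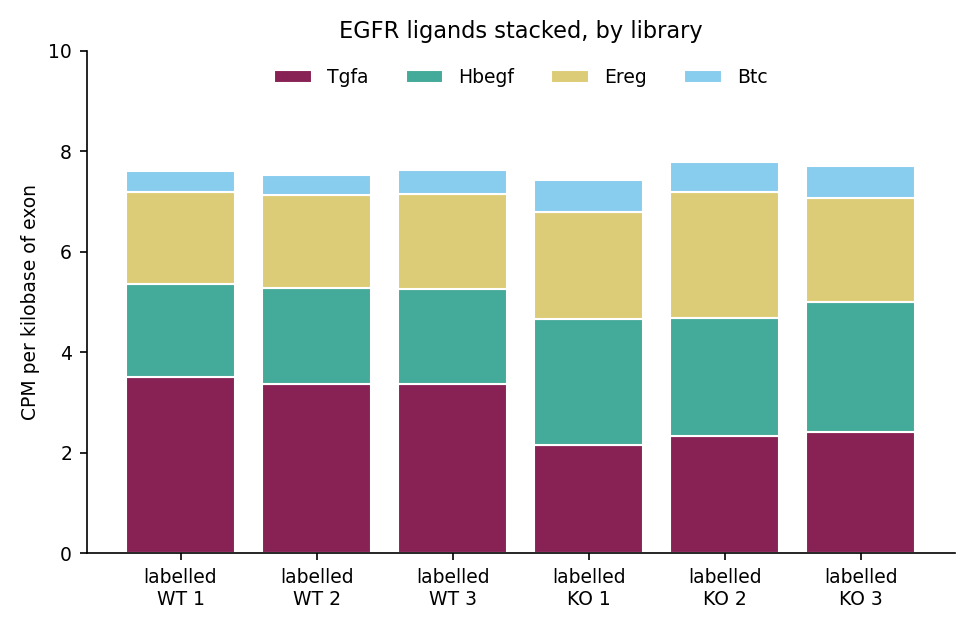
CPM per kilobase of exon of Tgfa, Hbegf, Ereg and Btc stacked for each of the 6 libraries. The stacks have nearly the same height, between 7.43 and 7.78, while the Tgfa part is smaller in each library labelled KO.

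The remaining genes of the pathway were taken from lists of other ligands and receptors, of ligand release, of receptor adaptors and of receptor restraint. Of their 43 genes 37 were tested, and 12 rose and 13 fell at an adjusted p under 0.05, with 3 called at 1.5-fold or more, beside 58.7% passing and 17.7% called over all genes tested. Their median log2 fold change was 0.023, and the median size of change was 0.181 beside 0.219 over all genes tested.

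Of the other ligands and receptors, Egf and Nrg2 were listed, and Epgn, Nrg3, Nrg4 and Erbb4 had no row. Egf, the founding ligand, had 73, 91 and 68 counts under the WT label and 106, 167 and 96 counts under the KO label. The groups stood close together, with replicate 2 of the group labelled KO the highest. Egf rose with a log2 fold change of 0.48 (SE 0.156, edgeR adjusted p 0.0191), but the adjusted p was 0.0504 without labelled WT replicate 1, 0.068 without labelled WT replicate 3 and 0.121 without labelled KO replicate 2. Nrg2, another neuregulin, had 13, 15 and 27 counts against 33, 42 and 33 counts and was called 1.72-fold higher in the libraries labelled KO (log2 fold change 0.78, SE 0.265, edgeR adjusted p 0.0224). That call was lost with DESeq2 at an adjusted p of 0.0659, without labelled WT replicate 1 at 0.0868, without labelled WT replicate 2 at 0.101 and without labelled KO replicate 2 at 0.0623.

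All 9 genes of ligand release were tested, and 3 rose and 4 fell, with 2 called, against the same 58.7% and 17.7% over all genes. Adam17, the main sheddase of several EGF receptor ligands, among them Tgfa, Ereg and Areg, was at 60.9 ± 1.93 CPM and 62.7 ± 1.42 CPM, and the groups overlapped. Its log2 fold change was 0.043 (95% interval -0.037 to 0.12, edgeR adjusted p 0.339). With upper-quartile factors, which moved the median of all genes up by 0.057 on the log2 scale, the adjusted p of Adam17 was 0.0314. Adam10, the main sheddase of Egf and Btc, was at 255.2 ± 1.73 CPM and 248.3 ± 3.82 CPM, with a log2 fold change of -0.040 (95% interval -0.10 to 0.021, edgeR adjusted p 0.240), and 0.017 with the shift of the upper-quartile factors. Adam12, a metalloprotease linked to shedding of Hbegf, rose from 51.6 to 77.7 CPM and was called, at 1.51-fold (log2 fold change 0.59, SE 0.0401, edgeR adjusted p 6.86e-08). It lay at the limit, and that call was lost without labelled WT replicate 2 (log2 fold change 0.58), without labelled KO replicate 1 (0.58) and without labelled KO replicate 3 (0.56), each with an adjusted p of at most 4.35e-06. Adam9, also linked to Hbegf, rose 1.48-fold from 262.7 to 389.4 CPM (edgeR adjusted p 6.69e-09). Adam9 went past the limit without labelled WT replicate 1 (log2 fold change 0.59), with upper-quartile factors (0.625) and with total counts only (0.603). Adam19, which can cut neuregulin, was called lower, from 72.7 to 42.8 CPM (log2 fold change -0.76, SE 0.0471, edgeR adjusted p 2.66e-08). Rhbdf2, the iRhom2 gene with a part in maturation of the Adam17 protein, fell from 31.9 to 25.3 CPM (log2 fold change -0.34, edgeR adjusted p 1.84e-04). Rhbdf1, also on this list, was more abundant and changed less, from 164.0 to 149.8 CPM (log2 fold change -0.13, edgeR adjusted p 0.00433). Maturation of the Adam17 protein was not tested.

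Of the receptor adaptors, which link the receptors to downstream signalling, 11 of 13 were tested. Of these 3 rose and 5 fell, beside 58.7% of all genes passing. None was called at 1.5-fold or more by edgeR, DESeq2 or limma-voom, beside 17.7% of all genes called by edgeR. An unadjusted edgeR p under 0.05 was found for 8 of them, and for 9002 of the 14289 genes tested. Plcg1, the phospholipase C gamma gene, fell from 176 to 131 CPM (log2 fold change -0.42, edgeR adjusted p 9.45e-08), and Gab2, a docking protein gene, rose from 21.1 to 28.2 CPM (log2 fold change 0.42, edgeR adjusted p 1.69e-05). Of 15 genes of receptor restraint, 4 rose and 4 fell, beside the same 58.7%. None was called by edgeR, DESeq2 or limma-voom, beside the same 17.7%. An unadjusted edgeR p under 0.05 was found for 8 of the 15, beside the same 9002 of 14289. Lrig3, of the LRIG family whose member Lrig1 restrains these receptors, rose from 24.7 to 33.9 CPM (log2 fold change 0.46, edgeR adjusted p 7.62e-06). Socs5, which promotes degradation of the EGF receptor, fell from 177 to 139 CPM (log2 fold change -0.35, edgeR adjusted p 3.32e-07). Both lists held genes that rose and genes that fell.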

How the data were processed

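The authors deposited raw counts per gene and log2 values made with limma's voom. Per the submitters' processing notes, reads were aligned to GRCm38.p6 with STAR 2.7.2b and counted with featureCounts. Whether counting used strand is not given in the sources used here, so reads of opposite-strand genes that overlap the exons of Erbb2 (9 bases), Tgfa (118), Ereg (141) and Nrg1 (482) cannot be told apart. The listed genes each have at least 20 counts in total. Libraries were made from polyadenylated RNA.

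Counts were tested with edgeR 4.0.16 (TMM factors, filterByExpr, quasi-likelihood test, Benjamini-Hochberg adjustment) in R 4.3.3, with 3 libraries a group. The functions were tested on simulated data. The biological coefficient of variation was 3.74%, and an exact permutation test of 3 against 3 cannot go below 0.1 (two-sided). DESeq2 1.42.0, limma 3.58.1, other scalings, filters and fold limits, and leaving out each replicate, were alternatives. Exon lengths and positions came from GENCODE M21. Groups came from the labels. Replicates were numbered in accession order.

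The members and lists were chosen with earlier results of these data known. The named genes were all members, Gli2 and Gli3, all other ligands and receptors, and in each list up to 2 called genes in each direction. Adam17, Adam10, Adam9, Rhbdf1, Rhbdf2, Gab2, Plcg1, Lrig3, Socs5, Mthfd2l and Parm1 were named after their values were seen. The rule also asked for the 3 genes most like the called member with at least 100 counts, but no member met that condition.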

Additional observations from a re-analysis of the deposited data

How the results depend on the processing

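In the first edgeR fit, 9002 of the 14289 genes tested had an unadjusted p under 0.05. Of the 9 members, 1 was called (Erbb3). This count was 2 with upper-quartile factors, 0 when at least 10 counts in every library were required (8 of the 8 members then tested had an unadjusted p under 0.05), 0 with DESeq2 (7 of 9 had an unadjusted p under 0.05) and 8 with no fold limit, and it ranged from 1 to 2 when each replicate was left out in turn, with 2 without labelled WT replicate 3 (Btc added) and 2 without labelled KO replicate 3 (Tgfa added). Of the 37 other pathway genes, 3 were called, against 25 with no fold limit and 0 at 2-fold or more. The count for these genes was 4 with upper-quartile factors, 4 with total counts only and 2 with DESeq2. It ranged from 1 to 3 when each replicate was left out, being 1 without labelled WT replicate 2. Over all genes 2531 were called, 8391 with no fold limit and 1456 at 2-fold or more, and from 2501 to 2618 when each replicate was left out. Upper-quartile factors moved the median of all genes up by 0.057 on the log2 scale, and with them Adam10 went from below 0 to a log2 fold change of 0.017 (adjusted p 0.625), by that common shift. No member changed sign under any alternative. Of the members' 125 alternative values, 116 stayed on the same side of the threshold, 6 no longer passed (Erbb2, Ereg and Erbb3) and 3 newly passed (Errfi1). No paired analysis was possible because the labels carry no replicate numbers shared between groups. Without a replicate, a group has 2 libraries and the spread is estimated over both groups. Depth limits Erbb3, at 4 to 13 counts a library.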
